A study of Mus musculus with 45 samples.

Results

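The extracellular matrix genes described here are 52 genes for structural proteins of the matrix and for proteins that bind, crosslink or protect them. They were taken as the probe sets with exactly 1 gene symbol that names a collagen chain, a laminin chain or a tissue inhibitor of metalloproteinases (Timp), or that is Lox, Lum, Dcn, Bgn, Fn1, Sparc, Nid1, Fmod or Ogn. This gave 77 probe sets of 52 genes, out of 10833 such probe sets of 8251 genes. There were 31 collagen genes, 9 laminin genes, 3 Timp genes and 9 others. Fbn1 and Timp4 had no probe set with 1 symbol and were not analysed here. A gene was represented in a tissue by its brightest probe set there, by mean level. No filter on low values was applied, so all 52 genes were tested in each tissue.

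RNA of liver, skeletal muscle and epididymal fat was hybridised to 45 Affymetrix arrays, in 12 groups of tissue, strain and diet. The mice, of the strains C57Bl/6 (B6) and 129S6/SvEvTac (129S6), were fed a diet labelled low-fat or high-fat, with no other treatment or allele given in the labels. The design text gives an age of 6 months and, for 1 diet that it calls standard, 21% of calories from fat, without saying which of the diets this was. Each array carried RNA pooled from 2 to 3 mice, so the spread between arrays is that between pools. Liver had 4 arrays in each group, muscle had 3 in the B6 low-fat group and 4 in the others, and fat had 4 arrays per B6 group and 3 per 129S6 group.

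Fibrillar collagens (types I, III and V here) form the fibres of connective tissue. Type IV collagen, the laminins and nidogen (Nid1) form the sheet-like basement membranes under endothelium and around muscle fibres and adipocytes. Lysyl oxidase (Lox) crosslinks collagen, small leucine-rich proteoglycans (Dcn, Lum, Bgn, Fmod, Ogn) coat collagen fibrils, and the Timp proteins inhibit the metalloproteinases that degrade matrix. In liver much fibrillar collagen is made by stellate cells, and in obese fat the matrix around adipocytes is remodelled. All these RNAs were measured in whole tissue, so fewer cells of a type and less RNA per cell cannot be told apart.

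Col4a1 and Col4a2 encode the chains of the most widespread type IV collagen and lie head to head on mouse chromosome 8. Their promoters are shown because the genes share them, while for diet in B6 liver and muscle only Col4a1 passed the threshold given below. The difference between the genes was not tested. In the RefSeq table for GRCm38.p6, 35 of the 52 genes had a promoter window, which is the 250 bases before and 50 bases after the annotated start. The Col4a1 window is chr8:11312777-11313076 on the minus strand and the Col4a2 window is chr8:11312555-11312854 on the plus strand. The 78 bases that the windows share, read from opposite strands, are in capitals.
Col4a1: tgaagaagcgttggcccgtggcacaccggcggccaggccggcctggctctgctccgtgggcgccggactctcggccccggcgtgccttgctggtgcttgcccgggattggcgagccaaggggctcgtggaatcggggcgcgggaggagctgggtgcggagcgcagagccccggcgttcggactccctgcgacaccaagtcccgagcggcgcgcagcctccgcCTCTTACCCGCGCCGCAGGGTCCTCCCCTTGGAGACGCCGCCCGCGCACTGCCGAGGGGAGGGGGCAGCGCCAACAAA
Col4a2: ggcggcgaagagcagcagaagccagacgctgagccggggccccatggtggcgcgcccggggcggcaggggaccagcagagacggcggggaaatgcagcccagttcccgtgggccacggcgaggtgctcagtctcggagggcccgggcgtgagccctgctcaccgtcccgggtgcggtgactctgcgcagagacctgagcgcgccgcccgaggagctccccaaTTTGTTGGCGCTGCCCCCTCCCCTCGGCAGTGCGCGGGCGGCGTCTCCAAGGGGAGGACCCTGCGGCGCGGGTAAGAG
The motif CCAAT, searched on both strands, had 1 match in each window and occurs in 37.4% of 32851 promoter windows of this length. GGGCGG had 1 match in the Col4a1 window and 3 in that of Col4a2, against 35.7% of all windows with any match. TATAAA had none in either window, against 13.6% of all windows.

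Levels below are log2 values of robust multi-array analysis (RMA), where 1 unit is a 2-fold change. Levels of different genes are not compared with each other. Diet differences are high-fat minus low-fat and strain differences are B6 minus 129S6, each ± SE. Adjusted p-values are those of limma over all 8251 genes of a tissue, and a gene is called where this is under 0.05. Several arrays stood apart in measures of quality. The 4 muscle arrays of B6 mice on the high-fat diet had narrow distributions, with an SD over all probe sets of 1.59 to 1.70. Replicate 9 of the 129S6 low-fat muscle group was like them at 1.57, while the other 10 muscle arrays lay between 1.80 and 1.88. The Gapdh 3' signal minus the 5' signal, a measure of RNA quality, also moved with diet in B6 muscle. It was 0.35 to 0.81 on the low-fat and 1.19 to 3.36 log2 units on the high-fat arrays, without overlap, and reached 4.44 on 129S6 high-fat replicate 1. In fat, the Gapdh 3' probe set exceeded the 5' probe set, a sign of RNA degradation or incomplete labelling, by 5.81 to 6.03 log2 units on 3 high-fat arrays and by 2.36 on another. The other 10 fat arrays lay between -0.06 and 0.41. In liver, the B6 low-fat arrays had a Gapdh difference of 0.82 to 1.69 against 0.23 to 0.35 in the B6 high-fat group, and replicate 11 of the 129S6 low-fat group had 3.26. The B6 low-fat liver arrays also formed a run of array numbers of their own, so diet and run cannot be told apart in B6 liver. The same holds in liver for the strain difference on the low-fat diet and for the difference of the diet response between the strains.

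Each tissue carried its own defining transcripts. The mean of 8 hepatocyte markers was 11.37 to 12.00 in liver and at most 8.76 elsewhere. The mean of 10 skeletal muscle fibre markers was 10.21 to 11.85 in muscle and at most 6.98 elsewhere, and that of 6 adipocyte markers was 10.65 to 11.29 in fat and at most 8.74 elsewhere. Markers of the epididymis, the organ next to this fat pad, ranged from 5.21 to 10.22 between fat arrays.

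**Figure D1:**
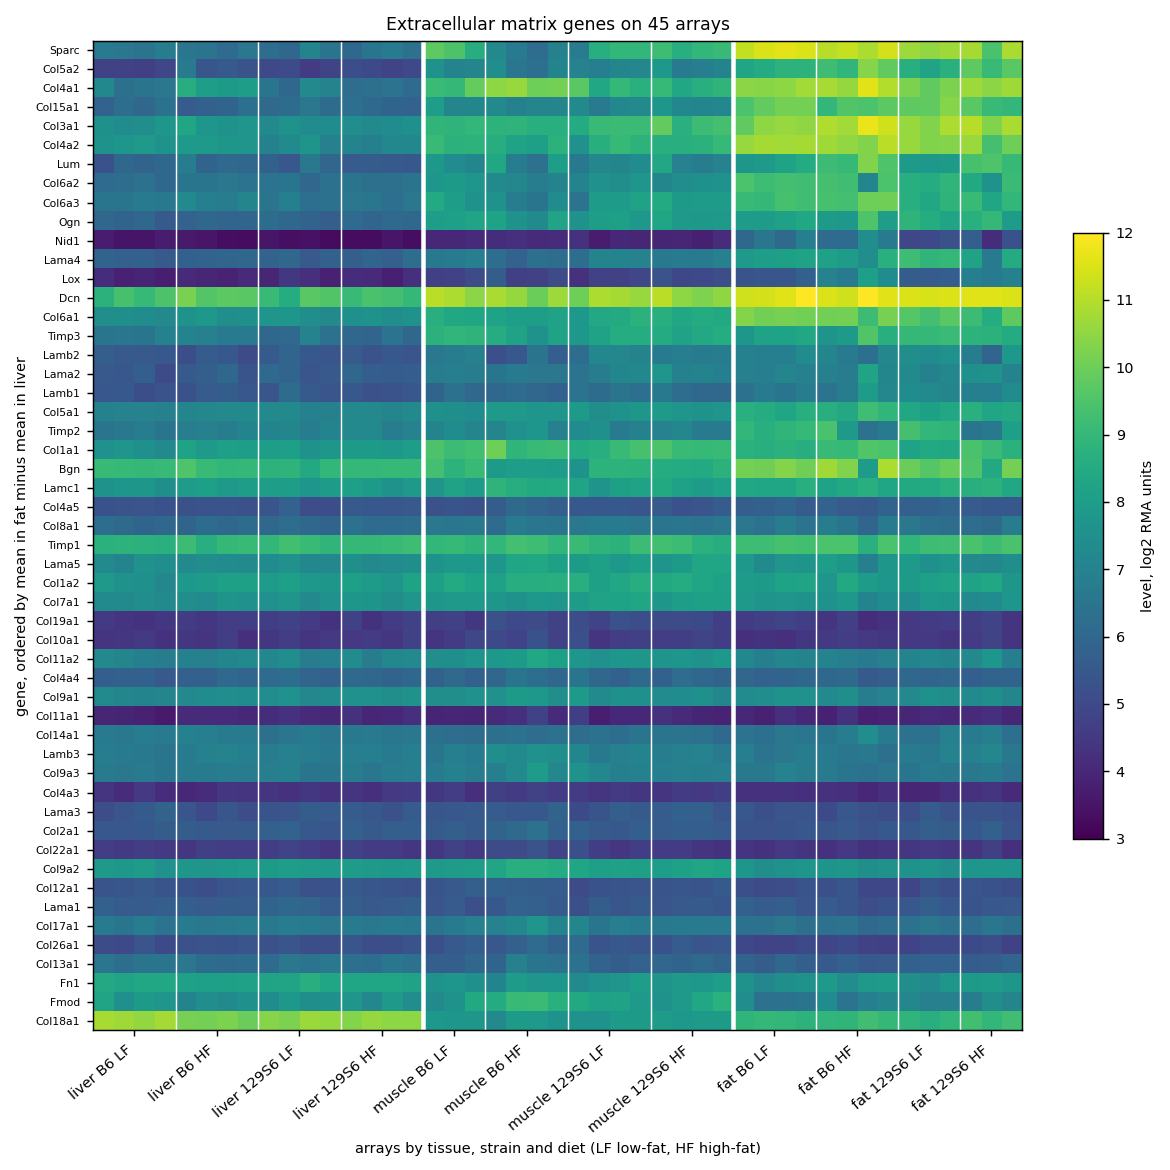
Level of each of the 52 genes (rows, 1 probe set per gene for all tissues) on each of 45 arrays (columns, grouped by tissue, strain and diet), in log2 RMA units from dark (low) to yellow (high). Genes are ordered by mean level in fat minus that in liver. Col18a1, at the bottom, is brightest in liver, and Sparc, at the top, in fat.

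With 1 probe set per gene for all tissues, 25 of the 52 genes had their highest mean in fat, 22 in muscle and 5 in liver. Over all genes the shares were 30.0%, 46.8% and 23.2%. For 5 genes every fat array lay above every array of both other tissues, which 1.88% of all genes did. These were Col15a1, Col4a2, Col5a1, Col5a2 and Dcn. Decorin (Dcn) had a mean of 11.59 ± 0.23 in fat (SD, n = 14), 10.61 ± 0.34 in muscle (n = 15) and 9.36 ± 0.41 in liver (n = 16). Collagen XV (Col15a1), which lies next to basement membranes, had 9.64 ± 0.43, 7.23 ± 0.30 and 6.07 ± 0.26 in the same order. In liver 2 genes lay above both other tissues in every array, against 4.14% of all genes. Col18a1, the source of endostatin, had 10.43 ± 0.25 in liver, 8.98 ± 0.17 in fat and 7.77 ± 0.19 in muscle. Fibronectin (Fn1), which hepatocytes secrete into plasma, had 8.28 ± 0.14 in liver, 7.68 ± 0.26 in muscle and 7.64 ± 0.26 in fat, where the muscle and fat values did not differ beyond their spread. No gene had every muscle array above both other tissues, against 1.7% of all genes. These tissue levels are descriptions, since each tissue was fitted apart.

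In the liver of B6 mice on the high-fat diet, RNA of type IV collagen chain alpha 1 and of several fibrillar collagen chains was higher than on the low-fat diet. Of the 52 genes 6 were called higher and 2 lower, that is 11.5% and 3.85%, beside 6.21% and 12% of all genes. Col4a1, Col5a2, Col1a1, Col1a2, Col6a3 and Lamc1 rose, and Col18a1 and Fmod fell. The B6 low-fat liver arrays had wider distributions (SD over all probe sets of 1.91 to 1.98) than the B6 high-fat arrays (1.84 to 1.89), without overlap. With the array SD as a covariate 2 of the 8 genes kept their call, Col4a1 at 2.02 (adjusted p = 0.00143) and Fmod at -0.84 (adjusted p = 0.021). The median difference was 0.12 over the 52 genes and 0.02 over all genes. The arrays of the diets did not overlap for 13 of the 52 genes and for 28.2% of all genes, so a lack of overlap is common here. Among the 2751 brightest genes, whose median difference was -0.12, 16 were members and their median was 0.20. In 129S6 liver no member was called for diet, beside 0.23% of all genes. By limma 1 member had an unadjusted p under 0.05 there, beside 527 of all 8251 genes.

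Col4a1 showed the largest difference of the 52 genes. Its levels in B6 liver were 7.20, 6.33, 6.47 and 6.55 on the low-fat diet, compared with 8.62, 8.06, 7.91 and 8.05 on the high-fat diet. In 129S6 liver they were 6.49, 6.03, 7.23 and 7.03 on the low-fat diet, compared with 6.23, 6.33, 6.44 and 6.14 on the high-fat diet. All 4 B6 high-fat arrays lay above each of the other 12 liver arrays. Col4a1 rose by 1.52 ± 0.23 in B6 (adjusted p = 0.000382) and differed by -0.41 ± 0.23 in 129S6 (adjusted p = 0.824). The diet difference itself differed between the strains, by 1.94 ± 0.33 (adjusted p = 0.00279). Like the B6 diet difference, this value cannot be told apart from the run of array numbers. Leaving out any 1 array gave a B6 diet difference of 1.37 to 1.71, past the threshold each time.

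Col4a2, which shares the promoter shown above, did not move with Col4a1 in B6 liver. Its levels were 7.61, 7.73, 7.82 and 7.59 on the low-fat diet, compared with 7.87, 7.82, 7.78 and 7.68 on the high-fat diet. These groups overlap, and the diet difference was 0.10 ± 0.13 (adjusted p = 0.642). In 129S6 liver Col4a2 had 6.96, 7.32, 7.66 and 6.90 on the low-fat diet, compared with 7.05, 6.88, 7.19 and 7.19 on the high-fat diet. Col4a2 was higher in B6 than in 129S6 on both diets, with differences of 0.48 ± 0.13 on low-fat (adjusted p = 0.028) and 0.71 ± 0.13 on high-fat food (adjusted p = 0.00464).

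**Figure D2:**
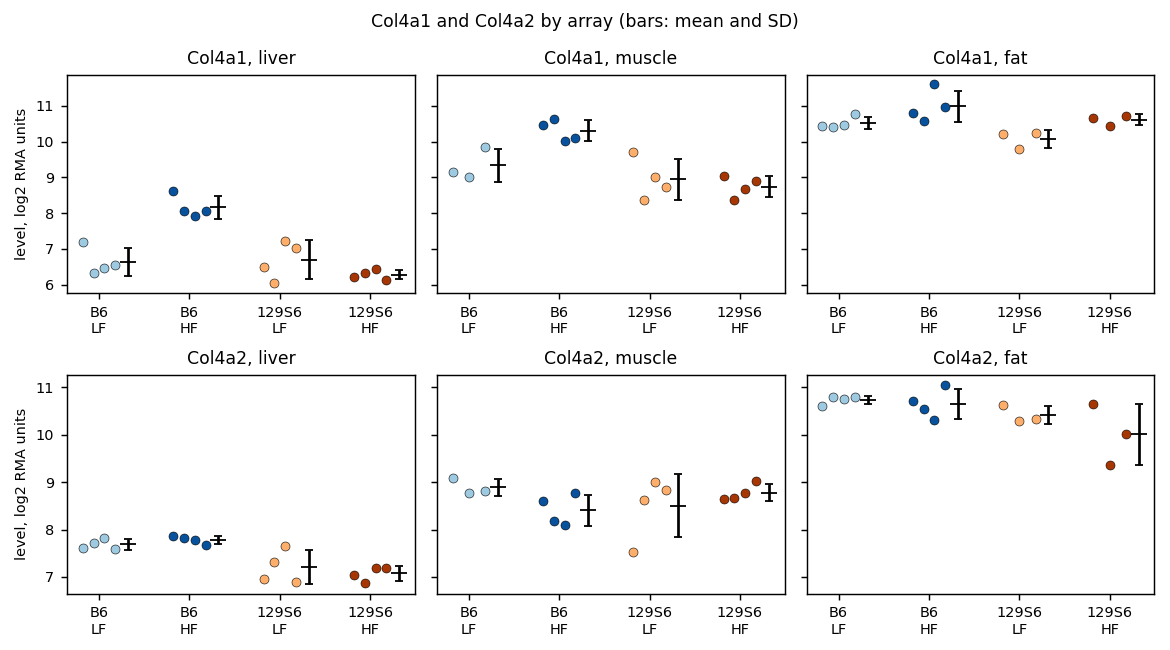
Levels of Col4a1 (top) and Col4a2 (bottom) in log2 RMA units, 1 point per array, in liver, muscle and fat by strain and diet (LF low-fat, HF high-fat); bars give the mean and SD. In liver the 4 B6 high-fat arrays reach 7.91 to 8.62 for Col4a1, above all other liver arrays, while Col4a2 in B6 stays between 7.59 and 7.87 on both diets.

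Among the fibrillar collagens, the alpha 1 chain of collagen I (Col1a1) had 7.56, 7.71, 7.50 and 7.32 in B6 liver on the low-fat diet, compared with 8.21, 7.85, 8.09 and 8.03 on the high-fat diet. The groups do not overlap, and Col1a1 rose by 0.52 ± 0.11 (adjusted p = 0.00525). Its second probe set gave 1.14. Col1a2, the partner chain, rose by 0.44 ± 0.14 (adjusted p = 0.0382), and by 0.80 with its second probe set. With the SD of each array as a covariate, Col1a1 differed by 0.29 (adjusted p = 0.209) and Col1a2 by -0.03 (adjusted p = 0.926). Col3a1, which forms fibres with collagen I, had 0.33 ± 0.13 (adjusted p = 0.0864).

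Col5a2, a chain of the collagen V that nucleates collagen fibrils, had 4.74, 4.75, 4.69 and 4.90 on the low-fat diet, compared with 6.68, 5.40, 5.51 and 5.31 on the high-fat diet in B6 liver. Replicate 13 of the high-fat group was far above the others, and every high-fat array was above every low-fat array. Col5a2 rose by 0.95 ± 0.21 (adjusted p = 0.00608), and by 0.64 without replicate 13, where it stayed past the threshold. On replicate 13 the mean of 11 macrophage markers was 8.37 against 7.06 to 7.18 on the other 3 arrays of its group. The mean of 10 skeletal muscle fibre markers was 6.98 there against 5.96 to 6.24. The part of these transcripts in the levels of Col5a2 on that array was not tested.

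Of the other members called in B6 liver, Col6a3 of the microfibrillar collagen VI rose by 0.44 ± 0.13 (adjusted p = 0.028) and the laminin chain Lamc1 by 0.33 ± 0.10 (adjusted p = 0.033). With the Gapdh 3' to 5' difference as a covariate Col6a3 had 0.34 (adjusted p = 0.0822) and Lamc1 0.22 (adjusted p = 0.113). Col18a1 fell from 10.81, 10.71, 10.54 and 10.78 to 10.16, 10.12, 10.23 and 9.96, without overlap. This was a difference of -0.59 ± 0.10 (adjusted p = 0.000748), and the 5 Col18a1 probe sets ranged from -0.10 to -0.59. In 129S6 liver Col18a1 differed by 0.01 ± 0.10, and the difference between the strains was -0.60 ± 0.14 (adjusted p = 0.0191). After quantile normalization within liver Col18a1 fell by 0.29 in B6 (adjusted p = 0.0269), and its difference between the strains was -0.30 (adjusted p = 0.176). Fibromodulin (Fmod) fell by 0.54 with an SE of 0.16 (adjusted p = 0.0257), but its other probe set gave 0.18. Lumican (Lum) had 0.39 ± 0.23 and decorin (Dcn) 0.63 ± 0.21 (adjusted p = 0.0523), neither called.

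Of the Timp genes, none was called for diet in B6 liver. Timp1 differed by 0.22 ± 0.10, Timp2 by 0.31 ± 0.11 (adjusted p = 0.0716) and Timp3 by 0.22 ± 0.19. Fn1 had -0.24 ± 0.09 (adjusted p = 0.0667) and Sparc, a collagen-binding protein of the matrix, -0.20 ± 0.19. In 129S6 liver the smallest p-values were those of the laminin chain Lama1 (-0.23 ± 0.09, adjusted p = 0.676), Bgn (0.25 ± 0.12, adjusted p = 0.789) and Col9a1 (0.17 ± 0.09, adjusted p = 0.816).

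Between the strains on the low-fat diet, 3 of the 52 genes were called in liver, 1 higher and 2 lower in B6, beside 10% and 3.83% of all genes. In this comparison strain and the run of array numbers cannot be told apart. Col4a2 is given above. Timp2 was lower in B6, by -0.41 ± 0.11 (adjusted p = 0.0253), and Col11a1, a chain of a cartilage-type fibrillar collagen at low levels here, by -0.30 ± 0.09 (adjusted p = 0.0443). Each lost its call when 1 of several arrays was left out, and the count then ranged from 0 to 10.

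On the high-fat diet 4 members were higher in B6 liver and none lower, beside 3.03% and 2.13% of all genes. This comparison shares the B6 high-fat arrays with the diet comparison in B6. Col4a1 differed by 1.88 ± 0.23 (adjusted p = 8.64e-05), Timp3, the matrix-bound inhibitor, by 0.76 ± 0.19 (adjusted p = 0.0261) and Col6a3 by 0.52 ± 0.13 (adjusted p = 0.0267). With the run of array numbers as a block, Col4a1 was at 1.01 (adjusted p = 0.0967), Col4a2 at 0.56 (adjusted p = 0.21) and Timp3 at 0.12 (adjusted p = 0.822). Col6a3 was then at 0.88 (adjusted p = 0.0285). The 129S6 low-fat arrays of the B6 high-fat run had 7.23 and 7.03 for Col4a1, and those of the other run had 6.49 and 6.03. For the difference of the diet response between strains, 2 members were called, Col4a1 higher and Col18a1 lower, beside 0.861% and 4.63% of all genes.

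For the wider matrix genes of B6 liver, the counts for diet stand beside 6.21% higher and 12% lower over all genes. Of 21 metalloproteinase genes 4 rose, among them Mmp12, the macrophage elastase, by 0.96, and Mmp14, a membrane-bound collagenase, by 0.48. Of 13 genes of collagen synthesis and crosslinking 2 rose and 2 fell. Serpinh1, the collagen chaperone Hsp47, rose by 0.50, the collagen receptor Ddr2 rose by 0.47, and Bmp1, which cleaves the C-propeptide of procollagen, fell by 0.39. Of 26 other matrix proteins 4 rose and 1 fell, among them perlecan (Hspg2) at 0.57 and periostin (Postn) at 0.55, with Nid2 at -0.51. None of 22 genes of the TGF-beta axis rose and 1 fell, Ltbp4 at -0.38, and 2 of 20 genes with an integrin symbol rose, Itgax by 0.43 and Itgav by 0.53. Between the strains on the high-fat diet Serpinh1 was higher in B6 by 1.06 and Postn by 1.10. The 11 fibroblast, stellate cell and pericyte markers averaged 5.96 to 6.16 on the B6 low-fat and 6.13 to 6.33 on the B6 high-fat arrays, so the ranges overlap, and the pericyte and stellate cell gene Rgs5 rose by 0.44. Other marker means did not overlap between the diets in B6 liver, where 28.2% of all single genes did not overlap either. That of 8 hepatocyte markers was 11.72 to 11.87 on low-fat and 11.37 to 11.67 on high-fat arrays, and that of 2 blood markers was 10.52 to 11.16 and 9.68 to 9.99, with both genes called lower. The mean of 6 adipocyte markers was 6.07 to 6.26 and 6.32 to 6.45, and that of 3 cartilage and bone markers 5.90 to 6.08 and 6.10 to 6.26. Their part in the matrix differences was not tested.

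**Figure D3:**
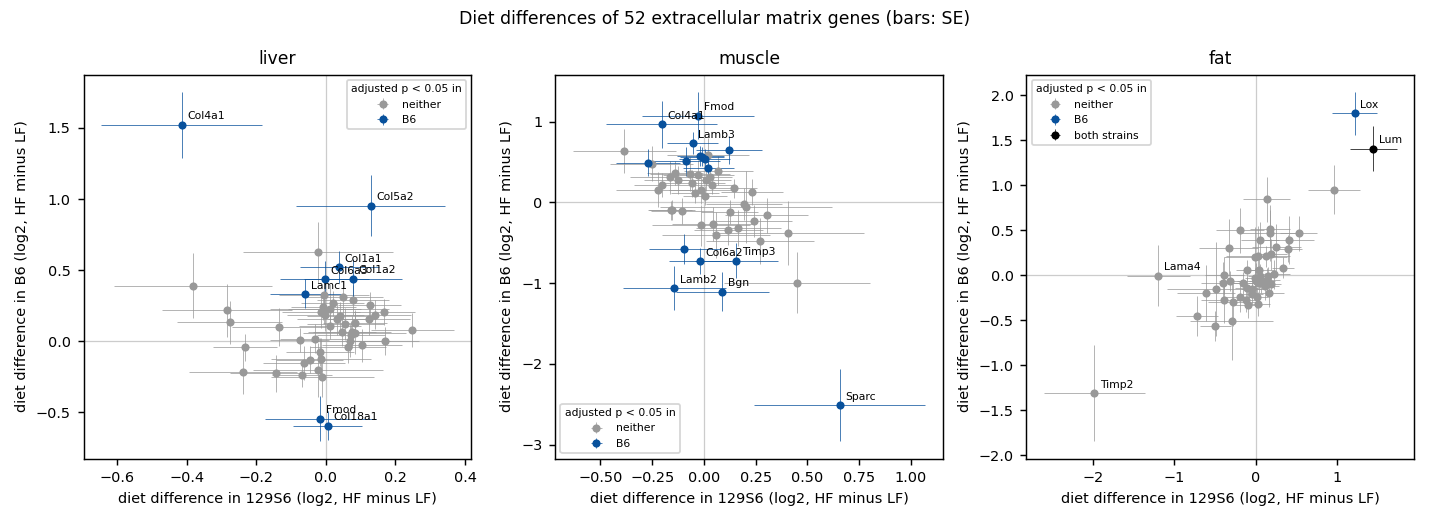
Diet difference (log2, high-fat minus low-fat) of each of the 52 genes in 129S6 (horizontal) and in B6 (vertical) for liver, muscle and fat, with SE bars; colour marks an adjusted p under 0.05. In liver and muscle the called genes are called in B6, with Col4a1 at 1.52 in liver and Sparc at -2.51 in muscle, and in fat Lox and Lum lie at the upper right.

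B6 skeletal muscle had lower Sparc on the high-fat than on the low-fat diet, and higher Col4a1, several other collagen chains and the laminin chain Lamb3. Of the 10 genes called higher, 5 were among the 2751 brightest of all genes by mean level, 3 among the 2750 dimmest and 2 between them. Of the 52 genes 10 were called higher and 6 lower, that is 19.2% and 11.5%, beside 14.8% and 12% of all genes. The median difference was 0.155 over the members and 0.164 over all genes, so the members' shares and median lay near the background. The arrays of the diets did not overlap for 22 of the 52 genes and for 40.8% of all genes. Among the dimmest 2750 genes, 13 of them members, the median difference was 0.35 for members and 0.26 for all. Among the brightest 2751, 26 of them members, it was -0.11 for members and -0.08 for all. All these differences fall between arrays of narrow and of wide distribution, as stated above. With the SD of each array as a covariate none of the 16 genes kept its call, and with the Gapdh difference as a covariate 11 did. Within groups the SD over all probe sets varied most in 129S6 low-fat muscle, from 1.57 on replicate 9 to 1.86. The adjustment for SD therefore rests largely on that array.

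Sparc had the largest difference, with 9.75, 9.49 and 8.61 in B6 muscle on the low-fat diet, compared with 7.25, 6.66, 6.20 and 6.97 on the high-fat diet. In 129S6 muscle Sparc had 6.79, 8.63, 8.96 and 8.94 on the low-fat diet, compared with 9.20, 8.69, 8.96 and 9.09 on the high-fat diet. The 5 arrays below 7.3 were the 4 of B6 on the high-fat diet and replicate 9 of the 129S6 low-fat group, the same 5 that had narrow distributions. Sparc fell by 2.51 with an SE of 0.45 in B6 (adjusted p = 0.00595) and differed by 0.66 ± 0.41 in 129S6 (adjusted p = 0.992). The difference between these was -3.17 ± 0.61 (adjusted p = 0.0304). With the array SD as a covariate the B6 diet difference of Sparc was -1.09 (adjusted p = 0.0629) and the difference between the strains -1.41 (adjusted p = 0.264). With 1 array left out the difference between the strains ranged from -3.50 to -2.65, and it lost its call for 8 of the 15 arrays (adjusted p from 0.000547 to 0.102).

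Col4a1 was at 9.14, 9.01 and 9.86 in B6 muscle on the low-fat diet, compared with 10.45, 10.63, 10.02 and 10.10 on the high-fat diet, without overlap. It rose by 0.97 ± 0.29 (adjusted p = 0.0294), and by 0.40 with the array SD as a covariate (adjusted p = 0.613). In 129S6 muscle Col4a1 had 9.70, 8.36, 9.00 and 8.72 on the low-fat diet, where the highest is replicate 9, and 9.03, 8.36, 8.67 and 8.89 on the high-fat diet. Col4a2 went the other way without a call, from 9.09, 8.77 and 8.81 to 8.59, 8.19, 8.09 and 8.77 in B6, a difference of -0.48 ± 0.28 (adjusted p = 0.193).

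Of the laminin genes, Lamb3 rose from 6.51, 6.88 and 6.76 to 7.43, 7.31, 7.57 and 7.50, a difference of 0.73 ± 0.13 (adjusted p = 0.0063). Lamb2, the beta chain of the neuromuscular junction, fell from 6.60, 6.76 and 6.91 to 5.20, 5.44, 6.45 and 5.69, a difference of -1.06 ± 0.27 (adjusted p = 0.0182). Lamc1 rose by 0.65 ± 0.17 (adjusted p = 0.0208) and Lama4 fell by 0.58 with an SE of 0.19 (adjusted p = 0.0373). Lama2, the main alpha chain of muscle, differed by -0.23 ± 0.20 (adjusted p = 0.362). Lamb3 also differed in its diet response between the strains, by 0.79 ± 0.18 (adjusted p = 0.0397), and by 0.54 with the array SD as a covariate (adjusted p = 0.693). That difference of Lamb3 lost its call for 11 of the 15 arrays left out in turn (adjusted p from 0.0211 to 0.126).

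Biglycan (Bgn) was at 9.30, 8.83 and 9.10 in B6 muscle on the low-fat diet, compared with 7.90, 8.01, 8.05 and 7.93 on the high-fat diet, a difference of -1.10 ± 0.24 (adjusted p = 0.0121). Its second probe set differed by 0.18. The 2 probe sets of Fmod passed in opposite directions, at 1.08 ± 0.29 (adjusted p = 0.0221) for the one used and at -1.26 for the other, so no direction is given for Fmod. Col6a2 fell by 0.73 with an SE of 0.16 (adjusted p = 0.0121), and Timp3 by 0.72 with an SE of 0.22 (adjusted p = 0.0297). Col6a3 had -0.99 ± 0.38 (adjusted p = 0.0629) and Col6a1 -0.34 ± 0.18 (adjusted p = 0.151). The other chains called higher were Col4a5 (0.58), Col9a2 (0.57), Col11a2 (0.53), Col17a1 (0.51), Col22a1 (0.49) and Col2a1 (0.43). Several of these had similar means in liver, muscle and fat. Col9a2 had 7.84, 8.23 and 7.65, Col11a2 7.08, 7.76 and 7.07, Col17a1 6.67, 6.88 and 6.36, and Col2a1 5.59, 5.74 and 5.47. Whether such levels lie above probe background was not tested. The abundant fibrillar chains were not called, with Col1a1 at -0.38 ± 0.40, Col1a2 at 0.24 ± 0.17 and Col3a1 at -0.16 ± 0.22.

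For 14 of the 16 called genes, 129S6 low-fat replicate 9 lay outside the range of the other 3 arrays of its group, on the side of the B6 high-fat arrays. The exceptions were Col11a2 and Col4a5. Over all 52 genes replicate 9 was outside that range for 44, counted on either side, so this number is not a like measure to the 14 of 16. The same count over all genes of the tissue was not made. Whether the 52 genes differ from the others in this respect was therefore not tested. The mean of 10 muscle fibre markers was 10.48 to 11.39 on the B6 high-fat arrays and 10.21 on replicate 9, against 11.66 to 11.85 on the B6 low-fat arrays. The mean of 2 blood markers was 7.90 to 8.54 on the B6 high-fat arrays and 9.67 to 11.79 on the B6 low-fat arrays. The mean of 11 fibroblast, stellate cell and pericyte markers was 7.20 to 7.36 on low-fat and 7.00 to 7.13 on high-fat arrays of B6. These markers did not move together, with 3 of 11 called higher (Reln, Rgs5 and Pdgfra) and 3 lower (Des, Mgp and Dpt). Des had the largest of these differences, at -2.58, and the median difference of the 11 was -0.12. The mean without Des was not computed, so the lower mean is not read as fewer cells of these types. The mean of 6 adipocyte markers was 8.30 to 8.74 on low-fat and 7.58 to 8.10 on high-fat arrays, with 3 of 6 called lower. That of 5 smooth muscle markers was 6.84 to 6.98 and 6.53 to 6.77. The mean of 4 epididymis markers was 4.93 to 5.08 and 5.27 to 5.59. None of these ranges overlap between the diets, and the part of these transcripts in the differences of the matrix genes was not tested.

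**Figure D4:**
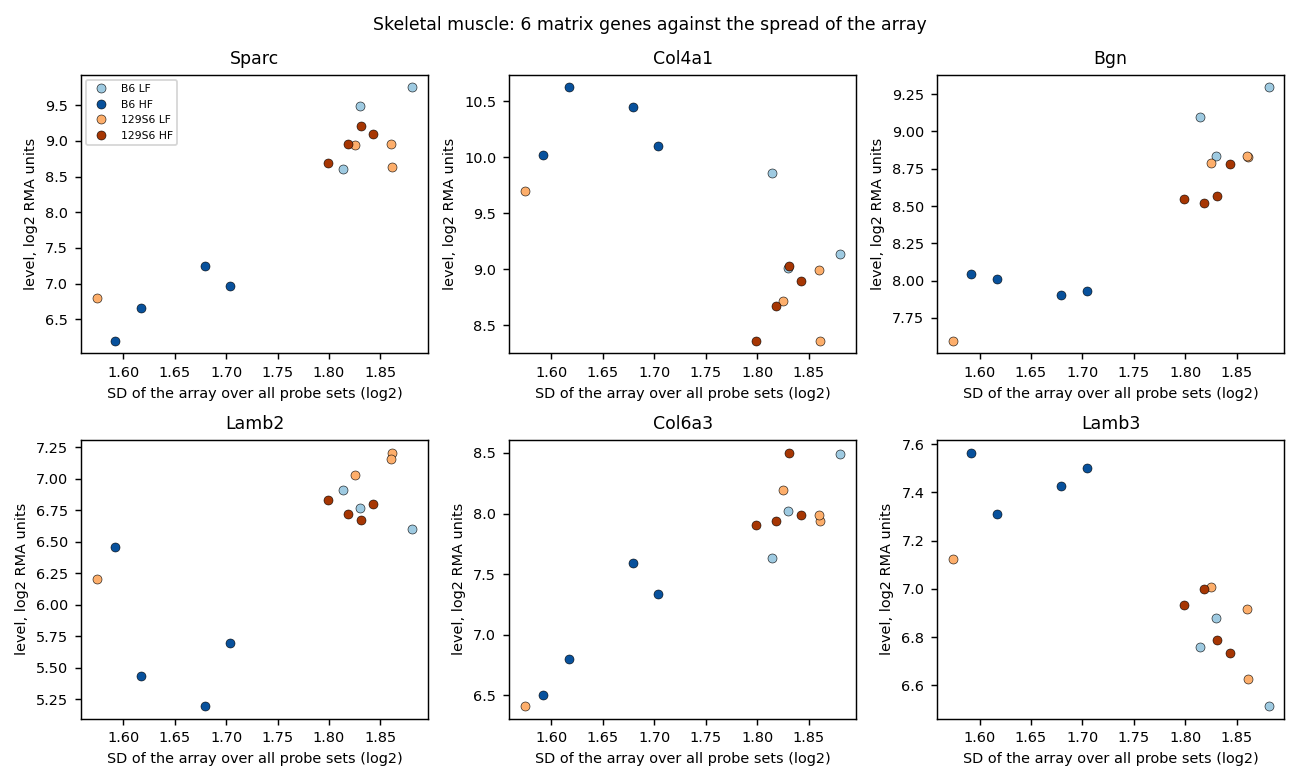
Levels of Sparc, Col4a1, Bgn, Lamb2, Col6a3 and Lamb3 (vertical, log2 RMA units) on the 15 muscle arrays against the SD of each array over all probe sets (horizontal, log2), coloured by strain and diet. The 4 B6 high-fat arrays and 129S6 low-fat replicate 9 lie at an SD of 1.57 to 1.70, and for Sparc these 5 are the lowest arrays.

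In 129S6 muscle no member was called for diet, and none had an unadjusted p under 0.05, beside 0% of all genes called (151 had an unadjusted p under 0.05 by limma). The smallest p-values were those of Col22a1 (-0.27 ± 0.15), Sparc (0.66 ± 0.41) and Lox (-0.39 ± 0.25), each with an adjusted p of 0.992. Between the strains on the low-fat diet no member was called, beside 0.279% of all genes. An unadjusted p under 0.05 by limma was found for 6 of the 52 members and for 503 of all 8251 genes. The smallest p-values were those of Col19a1 (-0.45 ± 0.15, adjusted p = 0.561), Col7a1 of anchoring fibrils (-0.34 ± 0.11, adjusted p = 0.561) and Timp3 (0.59 ± 0.22, adjusted p = 0.631).

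On the high-fat diet 9 members were higher and 6 lower in B6 muscle, beside 15.5% and 13.7% of all genes. This comparison shares the B6 high-fat arrays with the diet comparison in B6. Col4a1 differed by 1.56 ± 0.27 (adjusted p = 0.00269), Lox by 0.75 ± 0.25 (adjusted p = 0.0372) and Lamb3 by 0.59 ± 0.12 (adjusted p = 0.00667). Sparc differed by -2.22 ± 0.41 (adjusted p = 0.00407), Lamb2 by -1.06 ± 0.25 (adjusted p = 0.00996) and Lama2 by -0.56 ± 0.18 (adjusted p = 0.0373). Col6a3 had -1.03 ± 0.35 (adjusted p = 0.042) and Bgn -0.63 ± 0.22 (adjusted p = 0.0485). With the array SD as a covariate Col6a3 was at 0.05 and Bgn at 0.01, and none of the 15 genes kept its call. The others called were Col22a1 (0.59), Col17a1 (0.52), Col4a5 (0.41), Col2a1 (0.39), Col9a2 (0.38), Col11a2 (0.36) and Lama4 (-0.58). For the difference of the diet response between the strains, Sparc and Lamb3 were called, 1 lower and 1 higher, beside 2.53% and 0.654% of all genes.

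Of the wider matrix genes in B6 muscle, where 14.8% of all genes were called higher and 12% lower for diet, the collagen chaperone Serpinh1 fell by 1.50 for diet, the only 1 of 13 collagen synthesis genes to be called. Of 26 other matrix proteins 3 rose and 3 fell, the largest of them Mgp, the inhibitor of matrix calcification, by -1.19, and Fbln2, a basement membrane glycoprotein, by -0.70. Of 22 TGF-beta axis genes 2 rose and 1 fell, Ltbp4, which anchors latent TGF-beta in the matrix, by -1.43. Of 21 metalloproteinase genes 3 rose, Mmp16 by 0.58, and of 20 integrin genes 2 rose and 1 fell, with Itgb1 at 0.78 and Itgb5 at -0.65.

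In epididymal fat Lum was higher on the high-fat diet in both strains, and Lox was higher in B6 and in the average of the strains. For diet in B6 2 members were higher and none lower, that is 3.85%, beside 0.23% and 0.0485% of all genes. In 129S6 1 was higher and none lower, beside 0.448% and 0.303%. The arrays of the diets did not overlap for 5 members in B6, beside 8.61% of all genes, and for 15 in 129S6, beside 28.4%. Averaged over the strains, a comparison added after the data were seen, 3 were higher and 2 lower, beside 2.76% and 1.38% of all genes. The median difference in that average was -0.01 over the members and -0.02 over all genes.

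Lox had 5.30, 5.41, 5.42 and 5.79 in B6 fat on the low-fat diet, compared with 6.98, 6.66, 8.10 and 7.39 on the high-fat diet. In 129S6 fat it had 5.67, 5.60 and 5.71 on the low-fat diet, compared with 6.90, 6.75 and 6.96 on the high-fat diet. Every high-fat array was above every low-fat array, including the 3 high-fat arrays with a Gapdh 3' to 5' difference of at most 0.41, which had 6.98, 6.66 and 6.96. Lox rose by 1.80 ± 0.24 in B6 (adjusted p = 0.00889) and differed by 1.21 ± 0.27 in 129S6 (adjusted p = 0.0632). The average was 1.51 ± 0.18 (adjusted p = 0.000878), and the difference between the strains was 0.59 ± 0.36 (adjusted p = 1). A second Lox probe set gave 0.07 in B6 and 0.41 in 129S6, neither called.

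Lumican (Lum) had 7.78, 7.85, 8.18 and 8.54 in B6 fat on the low-fat diet, compared with 9.16, 9.03, 10.30 and 9.51 on the high-fat diet. In 129S6 fat it had 7.90, 7.79 and 7.91 on the low-fat diet, compared with 9.38, 9.51 and 9.04 on the high-fat diet. Again no high-fat array overlapped a low-fat array of either strain. Lum rose by 1.41 ± 0.25 in B6 (adjusted p = 0.0381) and by 1.44 ± 0.29 in 129S6 (adjusted p = 0.0401), and the average was 1.43 ± 0.19 (adjusted p = 0.00163). The averages of Lox and Lum stayed past the threshold under each alternative run, from 1.37 to 1.61 for Lox and from 1.29 to 1.50 for Lum when 1 array was left out. The calls within 1 strain did not all stay. Without B6 low-fat replicate 1 or 3, Lox in B6 was at 1.74 (adjusted p = 0.052) or 1.78 (adjusted p = 0.056). The Lum call was lost in B6 for 8 of the 14 arrays left out in turn (adjusted p up to 0.172) and in 129S6 for 9 of 14 (up to 0.169). With the Gapdh difference as a covariate Lum in 129S6 was at 0.88 (adjusted p = 0.173).

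Col5a2 rose by 0.96 ± 0.21 in the average (adjusted p = 0.0268), with 8.32, 8.55, 8.82 and 8.81 against 9.20, 8.94, 10.37 and 9.82 in B6. In 129S6 it had 8.68, 8.25 and 8.73 against 9.77, 9.07 and 9.69. With the Gapdh difference as a covariate Col5a2 had 0.67 (adjusted p = 0.342). Col3a1 had 0.49 ± 0.19 in the average (adjusted p = 0.132), Col1a1 0.40 ± 0.20 (adjusted p = 0.219) and Col1a2 0.32 ± 0.24 (adjusted p = 0.398). A second probe set of Col1a1 gave 0.67 and another of Col3a1 1.13, both past the threshold over all probe sets. Fn1 had 0.35 ± 0.11 (adjusted p = 0.0938) and Col4a1 0.50 ± 0.15 (adjusted p = 0.0747), and Dcn had 0.05 ± 0.13.

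Timp2 fell in the average, by 1.64 with an SE of 0.41 (adjusted p = 0.0421). Its levels on the low-fat diet were 8.96, 8.68, 8.89 and 9.04 in B6 and 9.34, 8.95 and 8.90 in 129S6. On the high-fat diet they were 9.41, 7.86, 6.38 and 6.70 in B6 and 6.50, 6.65 and 8.09 in 129S6. The 4 arrays at 6.38 to 6.70 were the 4 with a Gapdh 3' to 5' difference above 2, and 1 high-fat array with a difference of 0.03 had the highest Timp2 level of all fat arrays. With that difference as a covariate Timp2 was at -0.60 (adjusted p = 0.586). Fmod fell by 0.53 with an SE of 0.13 (adjusted p = 0.0402), while its other probe set gave 0.19. Timp1 differed by 0.12 ± 0.13 and Timp3 by -0.01 ± 0.24.

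**Figure D5:**
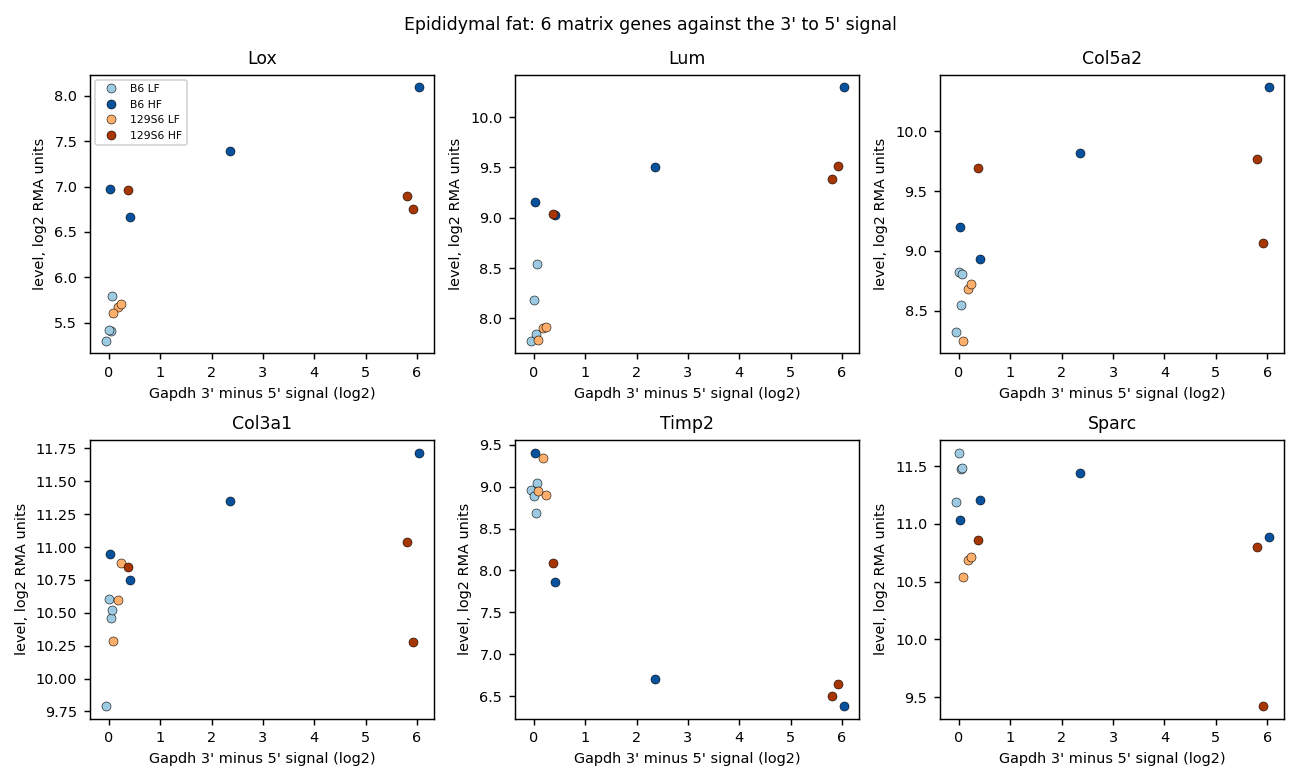
Levels of Lox, Lum, Col5a2, Col3a1, Timp2 and Sparc (vertical, log2 RMA units) on the 14 fat arrays against the Gapdh 3' minus 5' signal (horizontal, log2), coloured by strain and diet. For Lox the 3 high-fat arrays at a signal of at most 0.41 lie at 6.66 to 6.98, above all low-fat arrays, while Timp2 is at 6.38 to 6.70 on the 4 arrays above 2.

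The mean of 11 macrophage markers was 8.44 to 8.93 on the B6 high-fat arrays of fat against 7.79 to 8.34 on low-fat. In 129S6 it was 8.08 to 8.54 against 7.06 to 7.39. The 11 fibroblast, stellate cell and pericyte markers averaged 7.15 to 7.43 against 7.07 to 7.33 in B6 and 6.92 to 7.02 against 6.83 to 6.92 in 129S6. Means of 5 smooth muscle markers were 6.98 to 7.13 on high-fat against 7.15 to 7.62 on low-fat arrays in B6 and 6.89 to 7.11 against 7.31 to 7.58 in 129S6, without overlap. Those of 6 mesothelium markers were 6.13 to 6.56 against 6.43 to 7.27 in B6, with overlap, and 6.05 to 6.16 against 6.28 to 6.79 in 129S6. The mesothelial gene Upk3b fell by 0.72 in B6 (adjusted p = 0.0474) and by 1.02 in 129S6 (adjusted p = 0.00831). In 129S6 the means of 11 endothelium markers (7.04 to 7.46 against 7.60 to 7.83), 2 blood markers (9.71 to 10.54 against 10.74 to 10.96) and 3 Schwann cell markers (6.36 to 6.72 against 6.09 to 6.29) did not overlap either. The part of these cell types in the levels of Lox and Lum was not tested.

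Between the strains in fat no member was called on the low-fat diet, beside 1.08% of all genes, or on the high-fat diet, beside 0.436%. By limma 10 and 8 members had an unadjusted p under 0.05, beside 766 and 709 of all 8251 genes. The smallest p-values were those of Nid1 (1.34 ± 0.37), Sparc (0.79 ± 0.28) and Lama4 (-0.98 ± 0.37) on the low-fat diet, and of Nid1 (1.53 ± 0.37), Col6a3 (0.90 ± 0.23) and Sparc (0.78 ± 0.28) on the high-fat diet. Averaged over the diets, also added after the data were seen, 2 members were higher in B6 and none lower, beside 1.48% and 1.31% of all genes. Nidogen 1 (Nid1), which joins laminin to type IV collagen, had 6.05, 6.53, 6.10 and 6.87 in B6 fat on the low-fat diet, compared with 6.14, 6.14, 7.43 and 6.69 on the high-fat diet. In 129S6 fat Nid1 had 4.92, 4.98 and 5.24 on the low-fat diet, compared with 5.74, 4.19 and 5.28 on the high-fat diet. Every B6 array lay above every 129S6 array, and the averaged difference was 1.44 ± 0.26 (adjusted p = 0.00978). Col6a3 differed by 0.73 ± 0.16 (adjusted p = 0.0301) and Sparc by 0.79 ± 0.20 (adjusted p = 0.052). Cell markers also differed between the strains. On the low-fat diet the mean of 11 macrophage markers was 7.79 to 8.34 in B6 and 7.06 to 7.39 in 129S6. That of 11 fibroblast, stellate cell and pericyte markers was 7.07 to 7.33 and 6.83 to 6.92. Averaged over the diets, 5 of the 11 macrophage markers were called higher in B6 and none lower. The part of these cells in Nid1 and Col6a3 was not tested. All B6 fat arrays and 1 array of 129S6 belonged to 1 run of array numbers and the other 129S6 arrays to another. With the run as a block Nid1 was at 1.59 (adjusted p = 0.945) and Col6a3 at 0.72 (adjusted p = 1). For the difference of the diet response between the strains no member was called by limma, 1 (Lama4, 1.19 ± 0.52) had an unadjusted p under 0.05, and 0% of all genes were called (232 had an unadjusted p under 0.05).

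Of the wider matrix genes in fat, Mmp12 differed by 3.14 between the strains on the low-fat diet, at 9.23 in B6 against 6.08 in 129S6, and rose by 1.93 with diet in 129S6. It was the only 1 of 21 metalloproteinase genes called in each of these comparisons. Postn rose by 1.62 with diet in 129S6, and Mgp and Matn2 were higher in B6 on the high-fat diet by 1.85 and 1.36, the 2 called of 26 other matrix proteins. Of the TGF-beta axis Tgfbr3, a coreceptor, fell by 1.32 with diet in 129S6. None of 13 collagen synthesis genes was called in any of the 5 comparisons within fat by limma. Of all genes 0.279% were called for diet in B6, 0.751% for diet in 129S6 and 0% for the difference between the strains. For strain 1.08% were called on the low-fat and 0.436% on the high-fat diet. With shares this small, no call among 13 genes says little about them.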

How the data were processed

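The authors deposited log2 values. Per the submitters' processing notes the authors used RMA, which subtracts background, equalises array distributions and summarises the probes of a probe set. No RMA version is named. There were 12488 probe sets, with values from 2.26 to 14.26, with array medians of 6.07 to 6.24. Of these, 66 were controls, 10833 carried 1 gene symbol in the platform annotation, 396 several and 1193 none, and 10817 of those with 1 symbol matched the reference table by Entrez gene ID. The fit, 1 per tissue, used limma 3.58.1 (R 4.3.3) with 4 group means, moderated variances, two-sided tests and Benjamini-Hochberg adjustment over 8251 genes. The members and the gene and marker lists were chosen with earlier results of these data known. Any member may be named. The plan was to name at most 8 called members each way per comparison, but every called member is named. Where none was called, up to 3 members of smallest p are named. Genes of the pathway lists are named up to 3 each way per list and comparison. Alternatives were all probe sets, the probe set with the widest interquartile range, quantile normalization within a tissue, leaving out the dimmest genes, the Gapdh 3' to 5' difference or the array SD as a covariate, the run of array numbers as a block, and each array left out. The SD used as a covariate was that over the 8251 genes fitted, while the SDs printed are over all probe sets. Leaving out arrays with a Gapdh difference above 3, and the averaged comparisons in fat, were chosen after seeing the data. The fit was tested on simulated data with 100 genes changed by 1 log2 unit and 100 by 2 among 8251 for diet in B6. Of those changed by 1 unit, 97% were recovered in liver, 72% in muscle and 88% in fat. There were 12, 10 and 7 false calls in the same order. The noise was drawn for each gene apart, so these shares do not cover differences between whole arrays like those above. The number of arrays limits the precision. Figures were drawn with matplotlib 3.10.9.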

Additional observations from a re-analysis of the deposited data

Results flagged for a closer look

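For 4 of 66 group values of called members, 1 array lay far from the rest of its group, where chance gives about 1 in 20. Col5a2 in B6 high-fat liver was at 6.68 on replicate 13 and at 5.31 to 5.51 on the other 3 arrays. Without it the diet difference was 0.64 (adjusted p = 0.00147).

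Col6a3 in 129S6 high-fat liver was at 6.29 on replicate 9 and at 6.53 to 6.57 on the others, and without it the strain difference on the high-fat diet was 0.45 (adjusted p = 0.0821). In 129S6 high-fat muscle Col6a3 was at 8.50 on replicate 1 and at 7.90 to 7.99 on the others, and without it the strain difference was -0.88 (adjusted p = 0.103).

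Lama4 in B6 high-fat muscle was at 5.82 on replicate 6 and at 6.24 to 6.32 on the others. Without it the diet difference in B6 was -0.47 (adjusted p = 0.0974).

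For 4 genes the diet difference in B6 differed from that in 129S6 by the test of the difference itself. In liver these were Col4a1, by 1.94, and Col18a1, by -0.60, where the run of array numbers cannot be told apart from this difference. In muscle they were Lamb3, by 0.79, and Sparc, by -3.17. With each of the 15 muscle arrays left out in turn, Lamb3 lost its call for 11 (adjusted p up to 0.126) and Sparc for 8 (adjusted p up to 0.102).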

How the results depend on the processing

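Counts of called members moved by over 1.5 times in these cases. With the Gapdh 3' to 5' difference as a covariate they were 6 for strain on the low-fat diet and 7 for strain on the high-fat diet in liver, and 10 for the difference between the strains in muscle. In fat they were 0 for diet in 129S6, 2 for strain on the low-fat diet, 2 for strain on the high-fat diet, 2 for averaged diet and 4 for averaged strain. With the array SD as a covariate they were 1, 9 and 5 in liver for strain on the low-fat diet, strain on the high-fat diet and the difference between the strains. In muscle they were 0 for diet in B6, 0 for strain on the high-fat diet and 0 for the difference between the strains. In fat they were 0 for diet in B6, 2 for diet in 129S6, 1 for strain on the low-fat diet and 2 for averaged diet. With the run of array numbers as a block they were 2 for strain on the high-fat diet in liver. In fat they were 1 for diet in B6, 0 for diet in 129S6, 2 for averaged diet and 0 for averaged strain. Without arrays of a Gapdh difference above 3 they were 14, 10, 8 and 4 in liver for diet in B6, strain on the low-fat and on the high-fat diet and the difference between the strains. In muscle the difference between the strains had 0, and in fat diet in 129S6 had 3, strain on the low-fat diet 9 and averaged strain 11. Quantile normalization gave 1 for the difference between the strains in liver and 2 for diet in 129S6 fat. Without the dimmest genes the difference between the strains in muscle had 4. The block could not be fitted for diet in B6, strain on the low-fat diet or the difference between the strains in liver, and muscle formed 1 run.

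With 1 array left out, counts in liver ranged from 5 to 14 for diet in B6 (5 without B6 low-fat replicate 4 or high-fat replicate 16, 14 without 129S6 low-fat replicate 11). They ranged from 0 to 10 for strain on the low-fat diet (10 without 129S6 low-fat replicate 11), from 2 to 8 for strain on the high-fat diet (8 without that array) and from 2 to 4 for the difference between the strains. In muscle they ranged from 2 to 23 for diet in B6 (2 without B6 low-fat replicate 13, 7 without replicate 14, 9 and 10 without high-fat replicates 6 and 7). They ranged from 5 to 24 for strain on the high-fat diet (24 without 129S6 low-fat replicate 9, 5 without B6 high-fat replicate 6) and from 0 to 7 for the difference between the strains, which every array moved. In fat they ranged from 0 to 2 for diet in B6, 0 to 7 for diet in 129S6, 0 to 3 for strain on the low-fat diet, 0 to 7 for strain on the high-fat diet, 2 to 7 for averaged diet and 1 to 11 for averaged strain. The highest counts for diet in 129S6, for strain on each diet and for averaged strain came without B6 high-fat replicate 7, and that for averaged diet without B6 high-fat replicate 6 or 7. Of the called members, 4 of 8 for diet in B6 liver, 2 of 16 for diet in B6 muscle and 2 of 5 for averaged diet in fat kept their call whichever array was left out.

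Differences that changed sign were those of Col1a2 for diet in B6 liver (-0.0252 with the array SD as a covariate) and, with that covariate, Col6a3 (0.0513) and Bgn (0.0080) for strain on the high-fat diet in muscle. With the probe set of widest interquartile range Fmod was at -1.26 for diet in B6 muscle and at 0.19 for averaged diet in fat. The cause was not tested. No paired analysis was possible because the groups of a tissue share no replicate number.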
